A study of Oryza sativa with 6 samples.

Results

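The genes described here form a block of neighbours on chromosome 11 of rice, with identifiers from Os11g0605900 to Os11g0645400. The count table lists 172 genes in this range out of 36844 genes in all. A gene was taken as a member when it had at least 10 raw counts in 3 or more of the 6 libraries. Left out were genes for which the libraries of one cultivar all had 3 counts or fewer while those of the other all had 30 or more. This gave 93 members. Roots of the cultivars 9311 and HHZ were compared, with 3 libraries each. All plants were grown in culture solution with NH4NO3, and at 50 days after germination (DAG) every plant spent 2 days without NH4NO3 and then 3 h back in solution with 1 mM NH4NO3 before its roots were taken. There was no untreated group, so the cultivar is the only contrast. Nothing in the labels says whether the replicates came from separate containers, so the p-values measure the spread between these libraries only.

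As background, the long arm of rice chromosome 11 is known for clusters of disease resistance genes, many of them of the nucleotide-binding and leucine-rich repeat family, whose proteins sense pathogens. Such clusters often differ between cultivars, because copies are gained, lost or changed in sequence. Rice gene identifiers of this form name the chromosome, and their last digits generally run upward along it. The order of the identifiers was therefore taken as the order of the genes, with no coordinates at hand to check it. The count table does not pair identifiers with gene names, and 0 of the 172 identifiers were found in the RefSeq gene table used here, so the members are given by identifier and no role is assigned to any of them. For the same reason the root label was not checked against marker genes. The authors aligned the reads of both cultivars to IRGSP-1.0, the genome of the japonica cultivar Nipponbare, and a gene that is missing or changed in a cultivar can therefore be listed with few counts there. Such a gene and one that is merely expressed less cannot be told apart in these counts. In bulk roots, fewer cells of a type and less RNA per cell cannot be told apart either. The paper's text does not give the strand setting, so counts of overlapping, antisense or near-identical genes are uncertain.

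Of the 172 genes in the range, 42 had no counts in any library and 29 had some counts but too few for the rule. A further 8 genes were left out because they were counted in one cultivar only, 6 of them in 9311 and 2 in HHZ. The rule therefore used the counts themselves, and the block was bounded with the contrast of the cultivars known, so what follows describes the block and tests nothing about it. Close to the count limit, Os11g0629566 was a member with 8, 11 and 1 counts in 9311 replicates 1, 2 and 3 and 10, 12 and 6 in HHZ. Os11g0614500, with 8, 6 and 25 counts in 9311 and 5, 4 and 9 in HHZ, lay just outside. Close to the other limit, Os11g0617800 was kept with 27, 46 and 51 counts in 9311 and 0 in every HHZ library, while Os11g0618300 was left out with 90, 41 and 34 counts in 9311 and 0 in every HHZ library. Members on this side of the limit thus still include genes that were hardly counted in one cultivar, and for 13 of the 93 no library of the lower cultivar exceeded 3 counts.

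Expression is given as CPM, the counts relative to library size after scaling by edgeR's TMM factors. The library totals lay between 16622441 and 22646162 counts. The mean level of a member over all libraries ranged from 0.341 to 135 CPM with a median of 6.78, and 21 members lay below 1 CPM. Genes of the whole table chosen by the same rule had a median of 14.2 CPM. Of the 93 members, 92 had enough counts for the comparison of the cultivars, which was fitted over all 22554 genes tested with edgeR's quasi-likelihood test and Benjamini-Hochberg adjustment. Os11g0635300 was the member that was not tested, with 10, 13 and 12 counts in 9311 and 2, 0 and 2 in HHZ.

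A gene is named as called below when its adjusted p was under 0.05. Of the 92 members tested, 27 (29.3%) were called, 13 higher in 9311 and 14 higher in HHZ. Over all genes tested, 6.51% were called, 3.25% higher in 9311 and 3.26% higher in HHZ, and among the genes of the whole table under the same count rule the share was 5.38%, with 2.69% in either direction. In all 27, the libraries of both cultivars were fully separated. For 15 of the 27, no library of the lower cultivar reached 10 counts, so they entered the members through the other cultivar alone and had to differ. Another 13 members did not overlap between the cultivars without being called, 7 of them higher in HHZ and 6 higher in 9311. That makes 40 members without overlap (43.5%), beside 27.2% of all genes tested and 26.4% of those under the count rule. The median log2 fold change of the members, 9311 minus HHZ, was -0.03, and its median size was 0.46. Over all genes tested the median size was 0.26. The difference was unevenly spread among the members. In 51 of them it was under 0.5 on the log2 scale, in 11 it lay between 0.5 and 1, and in 30 (32.6%) it was at least 1, where 12.2% of all genes tested reached that size. All 27 called members were among these 30, and 14 of them had a log2 fold change of at least 3, taking the lower bounds given further on for members with no counts in one cultivar. The other 3 were Os11g0619000, Os11g0632200 and Os11g0643600, which were picked out after their values were seen.

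**Figure D1:**
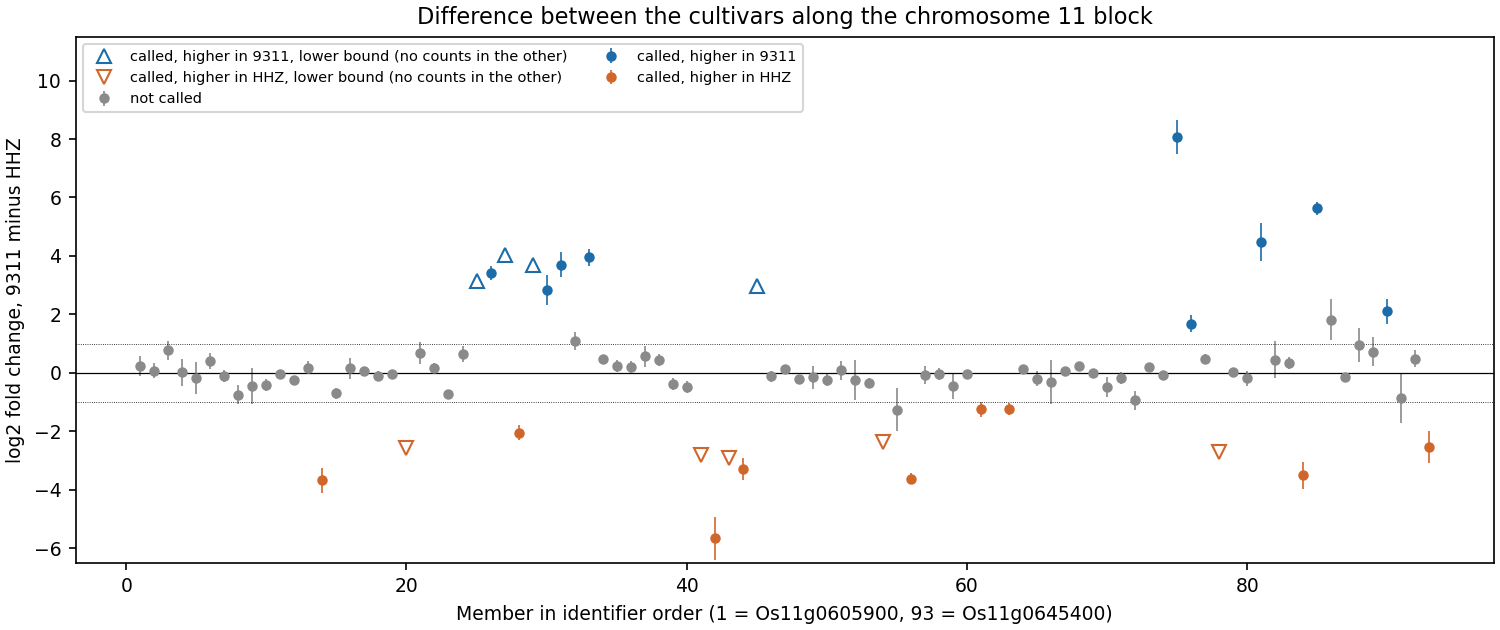
The log2 fold change of each of the 92 members tested (9311 minus HHZ, vertical axis) against its place in identifier order (horizontal axis). Filled points show the fitted value with its standard error, open triangles show the lower bound for the 9 members with no counts in one cultivar, and dotted lines mark a size of 1. Stretches of up to 13 members close to 0 alternate with members that differ strongly in either direction.

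Along the block, members that were not called came in stretches, broken by members that were called. The first 13 members, from Os11g0605900 to Os11g0611600, were not called, and their log2 fold changes lay between -0.75 and 0.77. The first member itself, Os11g0605900, was at 2.55, 2.26 and 2.34 CPM in 9311 replicates 1, 2 and 3 and at 2.93, 1.83 and 1.29 CPM in HHZ. Then followed Os11g0614400, higher in HHZ, 5 members that were not called, Os11g0615300, also higher in HHZ, and 4 more that were not called. From Os11g0616700 to Os11g0619500 all 9 members had a log2 fold change of at least 1 in size, 8 of them with the higher level in 9311 and only Os11g0618600 with the higher level in HHZ. Of the 9, Os11g0619000 was the only one not called. This was the longest such stretch of the block, and 3 of the genes left out for being counted in one cultivar also lay within it. Os11g0616700, Os11g0617800, Os11g0618700, Os11g0618800 and Os11g0618850 passed the count rule through 9311 alone, so these had to differ. The next 7 members, from Os11g0620000 to Os11g0621500, were not called.

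Directly after them came the longest series of neighbouring members called in the same direction, the 4 members Os11g0621825, Os11g0622150, Os11g0622200 and Os11g0622800, all higher in HHZ. The next member, Os11g0626700, was higher in 9311. Of the 8 genes listed between the latter 2 members, 2 had no counts and 2 were left out as counted in 9311 only. Os11g0621825, Os11g0622150 and Os11g0622200 passed the count rule through HHZ alone, and Os11g0626700 through 9311 alone, so these had to differ. From Os11g0629100 to Os11g0629600, 8 members were again not called, with log2 fold changes between -0.34 and 0.13. The 11 members from Os11g0636900 to Os11g0639000 were not called either, and their values lay between -0.95 and 0.23. Divided into 5 parts by member order, the block held 1, 9, 7, 3 and 7 called members from its first to its last part, with 18 or 19 members in each. In the second of these parts 7 of the 9 called members were higher in 9311, while in the third 6 of the 7 were higher in HHZ. In both of these parts most of the called members passed the count rule through a single cultivar, so the rule itself made them differ. The last member, Os11g0645400, was higher in HHZ, with 0.337, 0.736 and 1.17 CPM in 9311 and 3.01, 6.81 and 3.13 CPM in HHZ.

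The members that were clearly counted in both cultivars are described first. With at least 10 counts in every library, there were 71 such members, of which 11 (15.5%) were called, 5 higher in 9311 and 6 higher in HHZ. Over the whole table, 4.2% of the genes with that many counts were called. Their log2 fold changes lay between 1.24 and 5.63 in size. Os11g0643400 differed most. It was at 43.2, 35.7 and 52.8 CPM in 9311 replicates 1, 2 and 3 and at 1.00, 0.767 and 0.875 CPM in HHZ. All 9311 libraries were high and all HHZ libraries low, a 49.5-fold difference (log2 fold change 5.63, standard error 0.223, adjusted p = 0.000127 in edgeR). Os11g0641500 was at 31.8, 48.6 and 10.8 CPM in 9311 and at 1.18, 0.809 and 2.12 CPM in HHZ. Its 9311 libraries differed 4.52-fold among themselves, the widest such range among these 11 members in either cultivar, and still lay above those of HHZ (log2 fold change 4.47, standard error 0.657, adjusted p = 0.0111).

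For Os11g0619500, the 9311 libraries were at 19.3, 15.6 and 17.4 CPM and the HHZ libraries at 1.27, 0.681 and 1.43 CPM, which is 15.4-fold (log2 fold change 3.95, standard error 0.296, adjusted p = 0.000705 in edgeR). Os11g0616900 was the member with the highest level in 9311 among those called higher there, at 50.1, 66.0 and 36.2 CPM, with 5.07, 4.68 and 4.51 CPM in HHZ. Its HHZ libraries lay close together, and the difference was 10.7-fold (log2 fold change 3.42, standard error 0.244, adjusted p = 0.000594). Os11g0640000 was low in both cultivars, at 2.07, 1.84 and 2.34 CPM in 9311 and 0.524, 0.639 and 0.783 CPM in HHZ. Its log2 fold change of 1.68 was the smallest among the members called higher in 9311 (standard error 0.288, adjusted p = 0.0205). This member, together with Os11g0618600, Os11g0618800, Os11g0634800 and Os11g0636600, falls outside the rule for named genes and was chosen after its values were seen, so that all 27 called members are given.

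In the other direction, Os11g0614400 was at 3.51, 3.21 and 4.97 CPM in 9311 and at 38.7, 31.4 and 79.5 CPM in HHZ. HHZ replicate 3 stood well above the other HHZ libraries, yet these too exceeded every 9311 library (log2 fold change -3.68, standard error 0.416, adjusted p = 0.00401 in edgeR). Os11g0633500 separated the cultivars more evenly, with 1.20, 1.47 and 1.35 CPM in 9311 and 17.6, 17.8 and 14.1 CPM in HHZ, a 12.3-fold difference (log2 fold change -3.62, standard error 0.189, adjusted p = 0.000219). Os11g0622800, the last of the 4 neighbours named above, was at 7.51, 8.47 and 3.57 CPM in 9311 and at 80.8, 63.3 and 45.5 CPM in HHZ. It is the only one of these 4 with more than 1 count in any 9311 library. Its log2 fold change was -3.27 (standard error 0.375, adjusted p = 0.00415).

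Os11g0618600 ran against its neighbours, which were higher in 9311. It was at 3.13, 2.47 and 3.28 CPM in 9311 and at 14.9, 8.43 and 13.4 CPM in HHZ, 4.13-fold higher in HHZ (log2 fold change -2.05, standard error 0.267, adjusted p = 0.00713 in edgeR). The remaining 2 of these members showed the smallest differences of all called members. Os11g0636600 was at 7.41, 5.00 and 7.08 CPM in 9311 and 15.9, 16.7 and 13.2 CPM in HHZ, a 2.35-fold difference with an adjusted p of 0.0167. Os11g0634800 was at 43.5, 46.9 and 44.2 CPM in 9311, where the libraries hardly differed, and at 107, 70.0 and 142 CPM in HHZ, where they differed 2.03-fold. The cultivars did not overlap, and the log2 fold change was -1.25 (standard error 0.249, adjusted p = 0.0351).

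**Figure D2:**
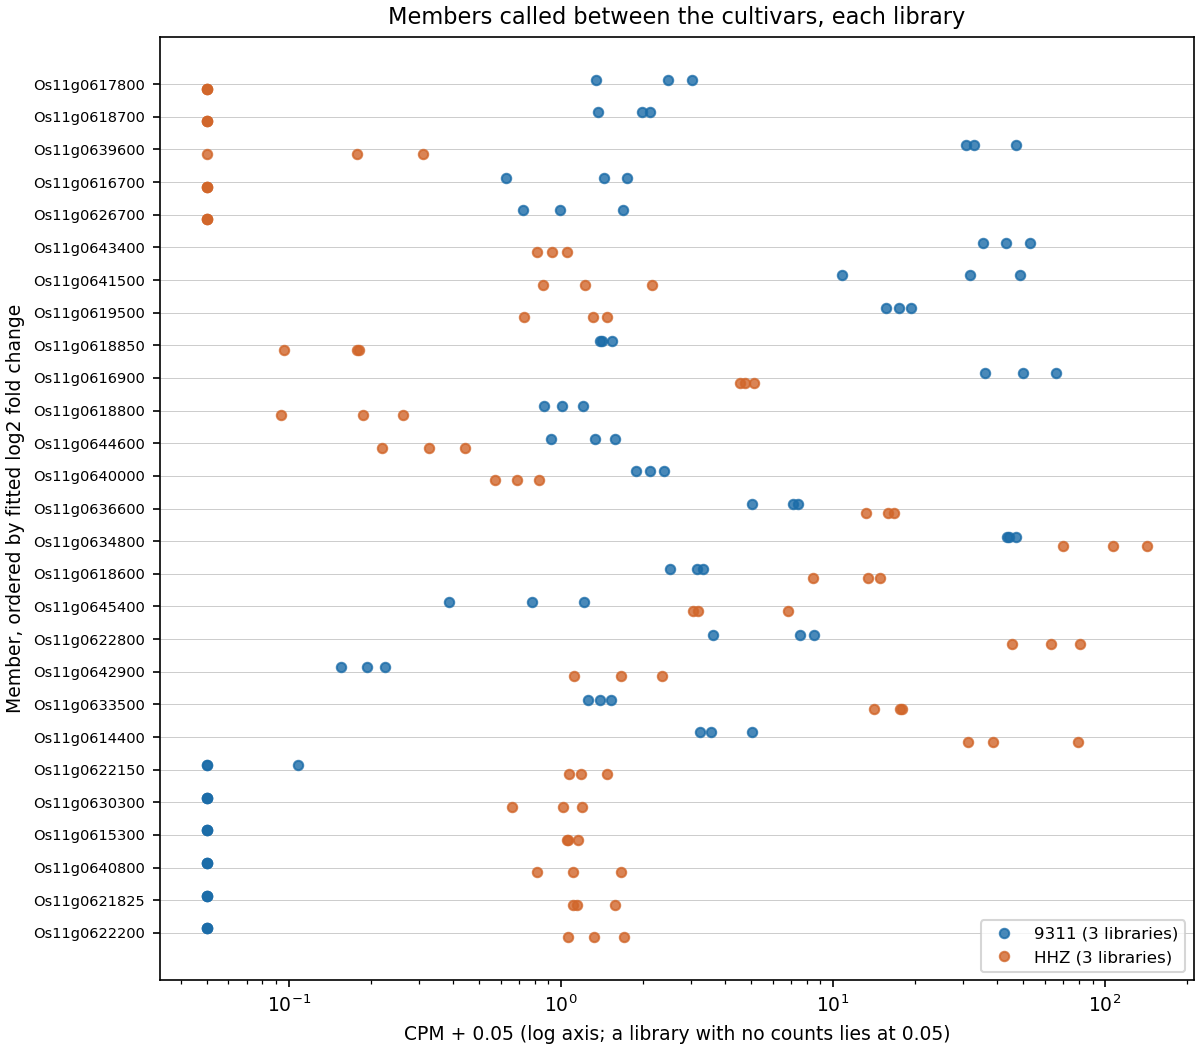
Expression of the 27 called members in each library, as CPM plus 0.05 on a log axis, with 9311 in blue and HHZ in orange and members ordered by fitted log2 fold change. A library with no counts lies at 0.05. In every row the 3 libraries of one cultivar lie to one side of the 3 libraries of the other, and the 9 members with no counts in one cultivar stay below 3 CPM in the other. Their low level is largely set by the rule that chose the members.

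For 9 members no counts were found in any library of one cultivar, 4 of them without counts in HHZ and 5 without counts in 9311. They passed the filter through the other cultivar alone, so they had to differ, and their calls add nothing to that. The fit adds a small count to such genes, on which the fold change then depends, and a lower bound is given instead, the mean CPM of the counted cultivar over the CPM of 3 counts in a library of the other (0.138 CPM in HHZ and 0.175 CPM in 9311, the largest over the libraries). Os11g0617800 was at 1.30, 2.42 and 2.98 CPM in 9311, at least 16.2-fold higher than in HHZ. Os11g0618700, at 2.07, 1.31 and 1.93 CPM, was at least 12.8-fold higher. Os11g0616700 (at least 8.86-fold) and Os11g0626700 (at least 7.86-fold) were also counted in 9311 alone. All these libraries were low, and how far the differences exceed these bounds cannot be measured at this depth.

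The other 5 members were counted in HHZ alone. Os11g0622200 was at 1.66, 1.28 and 1.01 CPM in HHZ, at least 7.50-fold higher than in 9311, and its neighbour Os11g0621825 was at 1.09, 1.53 and 1.06 CPM, at least 7.00-fold higher. For Os11g0640800, Os11g0615300 and Os11g0630300 the bounds were 6.54-fold, 5.94-fold and 5.18-fold. None of the 9 members exceeded a mean of 2.23 CPM in the cultivar in which it was counted. The 8 genes left out by the rule reached more counts, up to 313 in a library for Os11g0617700 in 9311 and up to 343 for Os11g0640500 in HHZ.

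Another 13 members had under 10 counts in some library without being at 0 throughout a cultivar. Of the 12 tested, 7 were called, beside 5.38% of the genes of the whole table under the count rule. A share for low-count genes alone was not taken. In 6 of these 7, all but Os11g0645400, no library of the lower cultivar reached 10 counts. Like the members at 0 they passed the count rule through the other cultivar alone, so their values are a description and their adjusted p-values add nothing to it. Os11g0639600 stood out among them by its level. It had 978, 625 and 528 counts in 9311 replicates 1, 2 and 3 and 6, 3 and 0 counts in HHZ, which corresponds to 36.9 ± 8.83 CPM (SD, n = 3) and 0.130 ± 0.131 CPM (SD, n = 3). It was kept as a member because 1 HHZ library had more than 3 counts. The fitted log2 fold change was 8.07 (standard error 0.582, adjusted p = 0.000604 in edgeR).

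The other 6 were at or below 4.32 CPM on average in their higher cultivar. Os11g0618850 had 31, 26 and 23 counts in 9311 and 3, 3 and 1 in HHZ, a ratio of 13.7 with an exact 95% counting interval of 6.34 to 35.1. Its neighbour Os11g0618800 had 20, 22 and 14 counts in 9311 and 1, 5 and 3 in HHZ (log2 fold change 2.84, standard error 0.515, adjusted p = 0.0245). Os11g0622150, which lies between both of the members counted in HHZ alone named above, had 26, 24 and 31 counts in HHZ and 0, 0 and 1 in 9311. With a single count in the lower cultivar, the ratio of 67.7 had an interval of 11.8 to 2705. Os11g0642900 had 37, 25 and 50 counts in HHZ and 3, 2 and 3 in 9311, a ratio of 11.7 with an interval of 5.74 to 27.8. These intervals cover counting error only and describe these counts. Os11g0644600 (18, 29 and 22 counts in 9311, 9, 4 and 6 in HHZ) and the last member Os11g0645400 lay nearest to the threshold, with adjusted p-values of 0.0380 and 0.0450.

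The 65 members that were tested and not called were divided almost evenly by direction, with 33 higher in HHZ and 32 higher in 9311, and the median size of their log2 fold change was 0.23. They had a median level of 7.99 CPM, against 1.12 CPM for the called members. Of the latter, 15 passed the count rule through a single cultivar. Of the 14 members at or above 50 CPM on average, Os11g0634800 was the only one called, beside 6.51% of all genes tested. In 12 of the other 13 the difference was under 0.5 on the log2 scale. Shares for genes of the whole table at that level were not taken. Os11g0634500, for example, was at 137, 144 and 119 CPM in 9311 and at 127, 134 and 148 CPM in HHZ, and its cultivars overlapped. Os11g0636900 was at 130, 123 and 104 CPM in 9311 and 122, 104 and 96.8 CPM in HHZ, also with overlap. Os11g0637800 had the smallest difference of all members, 0.01 on the log2 scale with a standard error of 0.115.

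**Figure D3:**
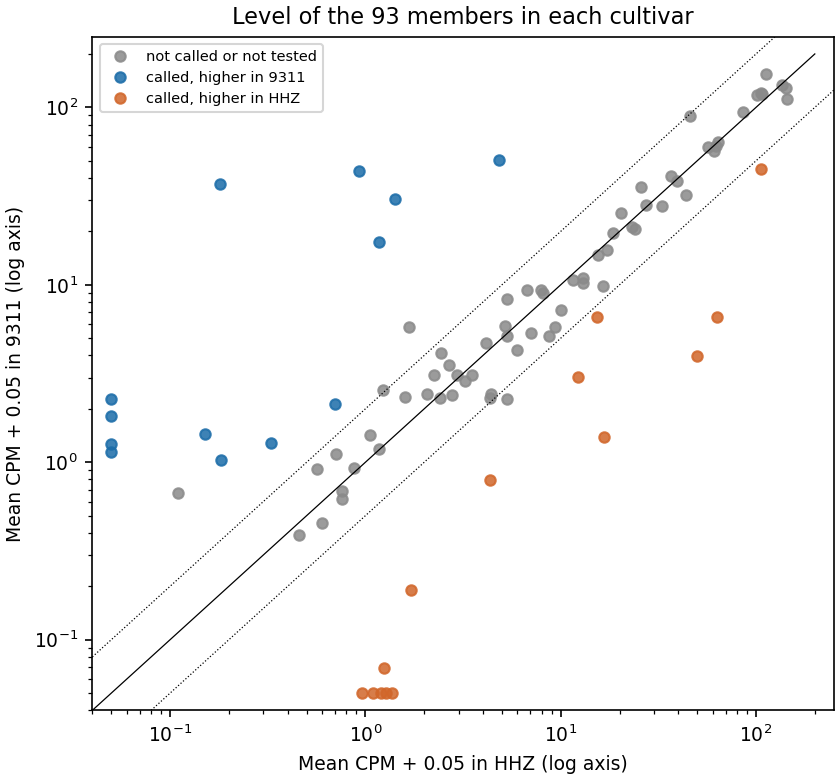
Mean CPM plus 0.05 of each of the 93 members in HHZ (horizontal, log axis) and in 9311 (vertical, log axis), with a solid line for equal levels and dotted lines at a 2-fold difference. Of the 14 members at or above 50 CPM on average, 13 lie between the dotted lines, and all 27 called members lie outside the dotted lines.

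Next to the threshold, Os11g0616200 was at 10.3, 10.0 and 9.18 CPM in 9311 and at 16.6, 19.1 and 13.5 CPM in HHZ. It did not overlap between the cultivars and had an adjusted p of 0.0507 (log2 fold change -0.74, standard error 0.165, edgeR). Os11g0620000 was at 34.6, 35.9 and 36.3 CPM in 9311 and 26.3, 27.5 and 23.4 CPM in HHZ, with an adjusted p of 0.0583 (log2 fold change 0.47, standard error 0.109). DESeq2 called both of them, along with Os11g0614800, Os11g0619000 and Os11g0635300, and called all 27 members as well, where it called 11.2% of the genes to which it gave an adjusted p. Of the 3 members with a log2 fold change of at least 1 that edgeR did not call, Os11g0632200 and Os11g0643600 varied widely among replicates of HHZ. Os11g0632200 was at 1.59, 1.10 and 3.98 CPM in 9311 and at 1.27, 6.94 and 7.64 CPM in HHZ, where replicate 1 lay within the range of 9311. Os11g0619000 was at 3.08, 2.63 and 1.75 CPM in 9311 and 1.22, 0.979 and 1.34 CPM in HHZ (adjusted p = 0.104). Its libraries ranged 1.76-fold in 9311 and 1.36-fold in HHZ, and its cultivars did not overlap.

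Os11g0643600 turned on a single library. It was at 6.21, 5.57 and 5.38 CPM in 9311 and at 0.699 and 0.554 CPM in HHZ replicates 1 and 2, but at 3.64 CPM in HHZ replicate 3. With all libraries its log2 fold change was 1.82 (standard error 0.698, adjusted p = 0.205 in edgeR), and without HHZ replicate 3 it was 3.17 with an adjusted p of 0.00127, the lowest of its alternatives, which reached 0.402. The highest member of the block in 9311, Os11g0621000, showed the same to a lesser degree, with 151, 167 and 142 CPM in 9311 and 91.6, 94.7 and 152 CPM in HHZ. Its log2 fold change was 0.44 (adjusted p = 0.299) with all libraries and 0.71 (adjusted p = 0.0169, the lowest of alternatives that reached 0.598) without HHZ replicate 3. Leaving out HHZ replicate 3 also brought Os11g0614800, Os11g0616200 and Os11g0635300 under the threshold.

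The spread among replicates was measured as the range over the 3 libraries of a cultivar of log2(CPM + 0.5). Its median over the members was 0.44 in 9311 and 0.38 in HHZ. Over the genes of the whole table under the same rule it was 0.39 and 0.43. A range of at least 1 was found for 9 members in 9311 and for 13 in HHZ (9.78% and 14.1%, beside 10.4% and 16.5% of the genes under the same rule). HHZ replicate 3 was the highest or the lowest of its cultivar in 70 of the 92 members tested (76.1%, beside 79.3%). Of any 3 libraries that differ, 2 are the highest and the lowest, and HHZ replicates 1 and 2 were not counted in this way. The widest range was that of Os11g0644800, at 1.09, 2.47 and 9.44 CPM in HHZ replicates 1, 2 and 3 and at 4.04, 2.05 and 0.994 CPM in 9311. Both cultivars overlapped. Os11g0643800 was high in replicate 1 of both cultivars, with 137, 59.8 and 71.0 CPM in 9311 and 86.7, 29.1 and 21.8 CPM in HHZ. The standard error of 0.578 was large beside its log2 fold change, 0.96. Os11g0629400, one of the 5 members with the highest level, was at 219, 139 and 69.8 CPM in HHZ, a 3.15-fold range, and at 125, 156 and 102 CPM in 9311. The level of Os11g0621300, another of the 5, was 98.4, 106 and 128 CPM in 9311 and 187, 137 and 108 CPM in HHZ.

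The block was then set beside other stretches of genes chosen by the same count rule. In the 172 genes of the table before the block, from Os11g0574200 to Os11g0605600, 2 of 80 genes tested were called. In the 172 genes after it, from Os11g0645600 to Os11g0686400, 23 of 77 were called (29.9%), 14 higher in 9311 and 9 higher in HHZ. The shares before and within the block lay far apart, whereas those within and after it lay close together. In the block, 15 of the 27 called members passed the count rule through a single cultivar and had to differ. Such genes were not counted separately in the other stretches, so these shares, and those by size below, rest in part on the rule. The high share of called genes did not end at the last identifier of the block. Over the rest of chromosome 11, which includes the stretches before and after the block, the share called was 9.90% of 1101 genes. On chromosome 12 it was 6.26% of 1199. A log2 fold change of at least 1 was found in 6.25% of genes before the block, 32.6% within it and 40.3% after it. The median size of the log2 fold change was 0.26, 0.46 and 0.85 in the same order. Genes counted in one cultivar only made up 8 of 101 genes that passed the count rule in the block (7.92%), 1 of 83 before it (1.20%) and 6 of 83 after it (7.23%). The share was 1.18% over the whole table, 3.32% over the rest of chromosome 11 and 1.55% on chromosome 12. Genes with no counts in any library took 24.4% of the block, 29.7% of the stretch before and 30.8% of the stretch after it, beside 20.9% of the table. No test was made of these differences, since the block was chosen with results of these data known.

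**Figure D4:**
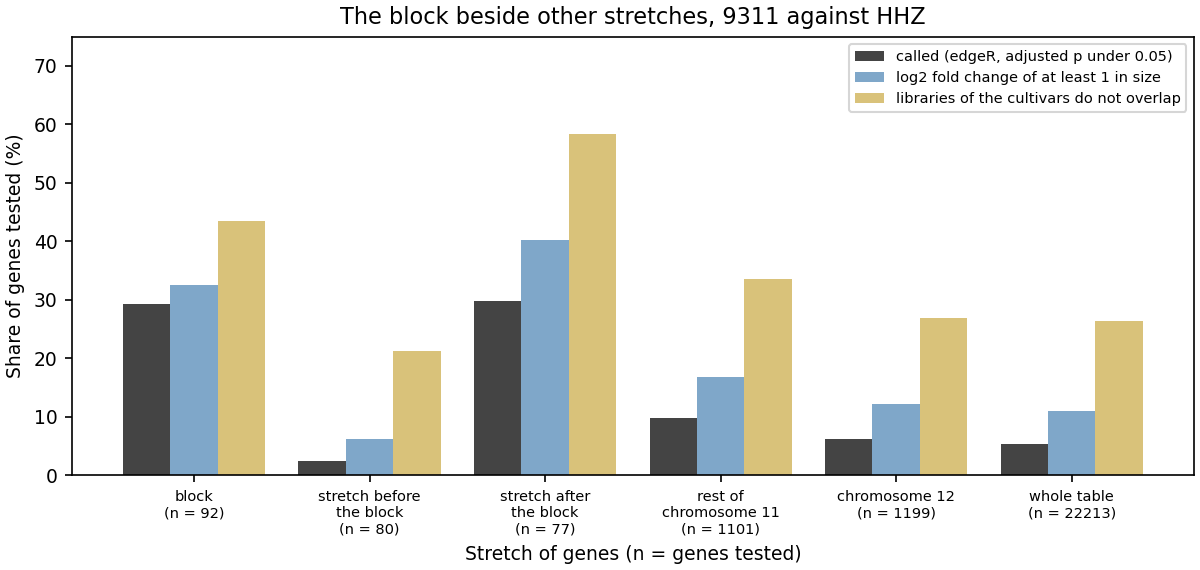
Share of genes (vertical axis, percent of genes tested, bars from 0) that were called, had a log2 fold change of at least 1 in size, or did not overlap between the cultivars, for the block, the 172 table genes on either side, the rest of chromosome 11, chromosome 12 and the whole table, all under the count rule of the block. The rest of chromosome 11 includes the genes on either side. Called genes made up 29.3% of the block and 29.9% of the stretch after it, while 2 of 80 genes were called in the stretch before it. The shares include genes that passed the count rule through a single cultivar and had to differ.

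Of the 27 calls, 12 were of members that reached 10 counts in at least 1 library of each cultivar, and 7 of these 12 were made again in each of the 6 fits that left out 1 library. These were Os11g0616900, Os11g0619500 and Os11g0643400, higher in 9311, and Os11g0614400, Os11g0618600, Os11g0622800 and Os11g0633500, higher in HHZ. Another 6 were also called in all 6 fits, Os11g0618700, Os11g0618850, Os11g0621825, Os11g0622150, Os11g0639600 and Os11g0642900, but they passed the count rule through one cultivar alone, so this says nothing about their stability. The other 14 lost the threshold without at least 1 library, and all 27 kept their direction in these fits. Of the 14, Os11g0615300, Os11g0616700, Os11g0617800, Os11g0618800, Os11g0622200, Os11g0626700, Os11g0630300, Os11g0640800 and Os11g0644600 also passed the count rule through a single cultivar. For these and the 6 named before, the rule set the direction too. Their adjusted p-values below are a description and say nothing about stability. Without HHZ replicate 2, the adjusted p in edgeR was 0.0518 for Os11g0615300, 0.0538 for Os11g0622200 and 0.0768 for Os11g0630300, each called in the other 5 fits. Without 9311 replicate 2 it was 0.0592 for Os11g0617800, which was also called in the other 5. Os11g0636600, Os11g0640800 and Os11g0641500 were not called without HHZ replicate 1 (0.0608, 0.0524 and 0.0502) or without HHZ replicate 2 (0.0755, 0.0507 and 0.0549). Os11g0616700, Os11g0626700 and Os11g0634800 were called in 2 of the 6 fits, with adjusted p-values up to 0.103, 0.0908 and 0.126. Os11g0618800, Os11g0640000 and Os11g0645400 were called only without HHZ replicate 3, and Os11g0644600 in none of the 6, with values between 0.0569 and 0.150.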

How the data were processed

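RNA sequencing libraries of roots of 9311 and HHZ, 3 of each, were used. According to the study's methods, the authors removed adaptors (cutadapt), mapped the reads to IRGSP-1.0 by STAR with an Ensembl Plants annotation, and used the read counts that STAR reported. The deposited table holds whole-number raw counts of each gene, in 1 column per library, with totals that differ between libraries. The submitters' processing notes name Trim Galore and STAR 2.5.3a, and the methods name another STAR version. The annotation release is not given in the sources used here.

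From the deposited counts, genes were filtered with filterByExpr (minimum count 10) and scaled by TMM, and cultivar was the only term in edgeR 4.0.16 (R 4.3.3). The standard error is the log2 fold change divided by the square root of F. Counting intervals are exact binomial (95%). Replicates of a cultivar differed by more than sampling noise (a chi-square of 22.3 to 98.6 per degree of freedom). Alternatives were DESeq2 1.42.0, limma-voom 3.58.1, robust dispersion, other normalizations, filters, thresholds and member rules, replicate blocks and each library left out. The fits were run on simulated counts with known changes. Those counts had the same dispersion for every gene and no deviating library, so they check the code and not these data. Named genes were up to 10 called members per direction with the largest changes, the 5 highest, those next to the threshold and the limits, the longest run, and the first and last. The members and lists were chosen with earlier results of these data known. Identifiers were put in ascending order, which departs from the table's row order at 1 place in the block.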

Additional observations from a re-analysis of the deposited data

How the results depend on the processing

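The number of called members (27, with 13 higher in 9311 and 14 higher in HHZ) stayed within 1.5 times under limma-voom, DESeq2, the other normalizations, robust dispersion and no filter, and with the genes counted in one cultivar kept in, and 10 members left out at each end. Of the 27, 15 passed the count rule through a single cultivar and had to differ. For these 15 a steady number is set in part by the rule and says nothing about stability. Asking for 10 or more counts in all 6 libraries left 71 members tested and 10 called (5 and 5). The median size of the log2 fold change was then 0.35. Of the genes of the whole table, 2.80% were called under this filter. The filter drops 16 called members. With at least 30 counts in 3 libraries, which drops members too, 13 of 69 were called (6 and 7) and the median size was 0.38. No share over the whole table was taken for that rule. At a threshold of 0.01 the number was 15 (6 and 9). When libraries were omitted one by one, 15 to 31 members were called (7 to 15 higher in 9311, 8 to 16 higher in HHZ) with a median size of 0.44 to 0.53. The lowest number, 15, came without HHZ replicate 2 and the highest, 31, without HHZ replicate 3. Over the whole table the number of called genes was 1468, and it was 2885 with DESeq2, 563 with 10 or more counts in all libraries, 635 at the threshold of 0.01 and 761 to 2724 without 1 library. Beyond the dropped members and thresholds, the cause was not tested. Scaling by library totals alone moved the median of all genes to -0.13 on the log2 scale and called the same 27 members.

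Replicate numbers did not pair the libraries, with correlations of -0.117, 0.0846 and -0.126 between the deviations of same-numbered libraries. With the replicate block, 10 members (10.9%) were called (5 and 5), all among the 27, and 470 genes of the table (2.08%).

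Of the 32 named members tested, values under an alternative numbered 495, of which 436 kept their direction and call, 50 lost the call and 4 gained one. Many of these members passed the count rule through a single cultivar, so the rule set their direction. For them the tally says nothing about stability. Of the 50 losses, 8 came from the threshold of 0.01. In 5 of the 495 values the sign changed, none of them called: Os11g0629400 without HHZ replicate 1 (0.29, range without 1 library -0.50 to 0.29), Os11g0634500 without 9311 replicate 3 (0.046) and without HHZ replicate 3 (0.019, range -0.097 to 0.046), Os11g0605900 without HHZ replicate 3 (-0.0079, range -0.0079 to 0.61) and Os11g0629566 without 9311 replicate 3 (0.23, range -0.82 to 0.23). Depth limits the 9 members with no counts in one cultivar to a lower bound of the fold.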
